A study of Saccharomyces cerevisiae with 14 samples.

Results

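The genes described here are 36 yeast genes of thiol and oxidant defence, with the enzymes that Yap1-type regulators are known to control. They were taken by symbol from the array annotation: thioredoxins, peroxiredoxins, glutaredoxins, glutathione enzymes, superoxide and peroxide scavengers, old yellow enzymes, aryl-alcohol dehydrogenases and the regulators YAP1 and SKN7. All 36 were found, each on 1 feature, among the 5548 genes named on the array, and all 36 had a value on every array. The study asked which genes depend on functional domains of TAF1, the scaffold subunit of the general transcription factor TFIID, and measured polyA RNA of Saccharomyces cerevisiae on 2-colour arrays of PCR products. RNA of each strain shared an array with RNA of a reference strain, yjdi363, and was labelled with Cy5 on array 1 and with Cy3 on array 2. The 7 groups, of 2 arrays each, were FHT-WT1 (strain yjdi353, the wild-type TAF1 by its label), the constructs DT1 (yjdi355), TF1 (yjdi357), HT4 (yjdi359) and PB1 (yjdi361), a strain labelled null (yjdi381), and a homotypic pair with the reference in both dyes. All cultures, the reference included, grew without leucine on 3% raffinose to an OD600 of about 0.7, received 2% galactose for 30 min at 25 °C to induce the TAF1 constructs, and were then held at 37 °C for 45 min. Every value is therefore from heat-shocked cells, and no unshocked culture was analysed here. What the 4 construct codes stand for, and the genotype of the reference, are not given in the sources used here. Nor is it stated whether arrays 1 and 2 used separate cultures, so the spread behind each p-value may be technical only.

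Yeast keeps its cytosol reduced with 2 partly overlapping thiol systems. Thioredoxins pass electrons from NADPH, through thioredoxin reductase, to peroxiredoxins and other enzymes, and the tripeptide glutathione serves glutaredoxins and glutathione peroxidases and is itself reduced by glutathione reductase. Superoxide dismutases and catalases remove superoxide and hydrogen peroxide directly. The bZIP factor Yap1, often together with the response regulator Skn7, is known to induce many of these genes when cells meet peroxides, and some of them also respond to heat through general stress factors.

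Values are log2 ratios to the reference with each array's median over 5535 genes set to 0. A value of 0 is therefore the typical gene of that array. Each rise or fall in centred values is relative to that gene, and a shift shared by all genes of an array is removed. As deposited, the mean array median lay 0.16 below that of FHT-WT1 in DT1, 0.21 below it in HT4 and at most 0.066 above it in TF1, PB1 and the null strain. In the homotypic pair it lay 0.22 above. Single arrays of a group also differed, with medians of 0.41 and -0.18 on null arrays 1 and 2 and 0.21 and -0.039 on those of TF1. The deposited table does not give the direction of the ratios. TAF1 lay at -3.52 and -3.46 on the null arrays and between -1.06 and -0.063 on the arrays of the other strains, and on this basis the strain was taken as the numerator, which every higher or lower value rests on. Over all 5535 genes (genes are not independent of each other), array 1 correlated with array 2 at r = 0.51 to 0.66 in the null strain, DT1, TF1, HT4 and PB1, -0.0059 in FHT-WT1 and -0.23 in the homotypic pair. Across the 36 redox genes these values were 0.43 to 0.76, 0.081 and -0.51. Each array held 6935 to 6971 features with a value, and the number of arrays limits the precision. Changes are log2 differences ± SE from limma with 2 arrays a group and a term for dye orientation. A gene is called at an adjusted p under 0.05 (Benjamini-Hochberg over the 5535 genes, two-sided).

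Some redox genes rose, others fell, and most were not called. Of the 36, 10 were called in at least 1 of the 5 comparisons with FHT-WT1 and 26 in none, against 16.5% of all genes called in at least 1. TRX1, DOT5, GRX3, GSH2 and AAD3 fell. The other 5, TSA1, GRX2, SOD1, CCP1 and OYE3, rose. The null strain had 4 called members, 2 higher and 2 lower, where 6.02% of all genes were called (1.9% higher and 4.12% lower). DT1 had 2, both lower, against 0.903% of all genes (0.199% higher and 0.705% lower). TF1 had 1 higher and 1 lower, against 3.72% (1.1% and 2.62%). HT4 had 4 higher and 3 lower, against 11.7% (4.9% and 6.81%). PB1 had 1 higher and 4 lower, against 7.35% (2.71% and 4.64%). These shares, 11.1%, 5.56%, 5.56%, 19.4% and 13.9% of the 36, rest on 2 to 7 genes each. The median of the 36 genes relative to FHT-WT1 was -0.025 in the null strain, -0.020 in DT1, 0.059 in TF1, 0.096 in HT4 and -0.067 in PB1, while that of all genes lay between -0.012 and -0.0076. The 5 comparisons share the FHT-WT1 arrays. Without centring the split was 1 higher and 0 lower in null, 0 and 1 in DT1, 0 and 1 in TF1, 0 and 2 in HT4, and 1 and 0 in PB1. The share of all genes called without centring is not given here. These smaller counts may therefore not be particular to the redox genes.

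The centred values can also be read without a fit, by counting the members whose 2 arrays in a strain both lay above, or both below, the 2 FHT-WT1 arrays. In HT4, 15 of the 36 genes lay above (41.7%, where 21.8% of all genes did) and 6 below (16.7% against 24.6%). In PB1 the balance was the other way, with 6 above (16.7% against 19.5%) and 12 below (33.3% against 23.1%). TF1 had 11 above (30.6% against 19.4%) and 7 below (19.4% against 21.7%). In null, 8 lay above (22.2% against 18.2%) and 5 below (13.9% against 21.1%), and in DT1 4 above (11.1% against 19.6%) and 9 below (25% against 22.5%). TRX1, GRX3, GSH2, AAD3 and AAD14 lay below in all 5 strains (13.9% of the 36, against 8.11% of all genes), and SOD2 above in all 5 (2.78% against 4.52%). These counts depend on the centring. As deposited, HT4 had 4 above and 14 below (11.1% and 38.9%, against 6.83% and 50.1% of all genes). Its balance reversed, but all genes also moved towards below. Both centred and as deposited, the share of the 36 in HT4 was larger than that of all genes above and smaller below. PB1 as deposited had 12 and 11 (33.3% and 30.6%, against 24.9% and 15.9%). As deposited TF1 had 10 above and 5 below (27.8% and 13.9%, against 18.1% and 16% of all genes). Null had 5 and 3 (13.9% and 8.33%, against 15.1% and 5.85%), and DT1 had 1 and 16 (2.78% and 44.4%, against 4.9% and 47.6%). TRX1, GSH2 and AAD3 then lay below in all 5 strains (8.33% of the 36, against 3.02% of all genes), and SOD2 above in all 5 (2.78% against 1.19%).

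**Figure D1:**
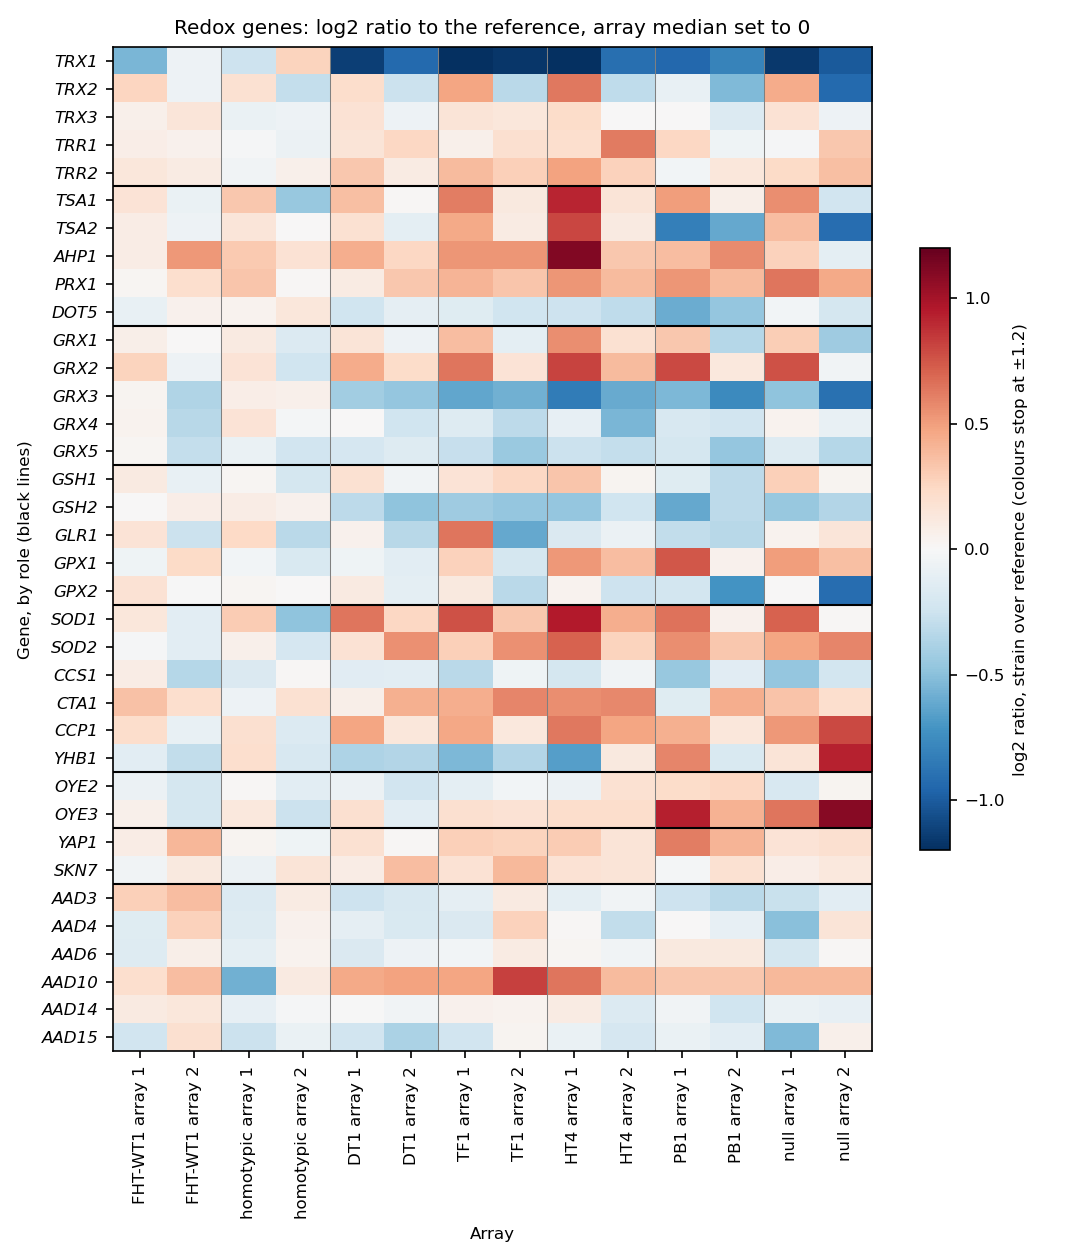
Centred log2 ratio to the reference of the 36 redox genes (rows, in blocks by role) on the 14 arrays (columns); red is above and blue below the array median, and colours stop at 1.2 in size. TRX1 is dark blue on all 10 arrays of DT1, TF1, HT4, PB1 and null, OYE3 is redder on the 4 PB1 and null arrays than elsewhere, and several rows, such as TRX2 and TSA1, differ between array 1 and array 2 of the same strain.

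The counts of calls moved with single arrays and with the fit, and the arrays that ended a call are named beside each gene. Except for the homotypic control, the share of all genes called in these fits is not given here. A moved count may therefore not be particular to the redox genes. Without FHT-WT1 array 2 the counts in null, DT1, TF1, HT4 and PB1 were 0, 0, 1, 4 and 1, and without FHT-WT1 array 1 they were 1, 1, 1, 1 and 0. The null count was 8 without null array 1 and 0 without null array 2, the PB1 count 8 with either null array left out, and the HT4 count 1 without HT4 array 1 and 4 without HT4 array 2. With no dye term, or with all arrays scaled to the same spread, no redox gene was called by limma in any of the 5 comparisons (5 to 14 members had an unadjusted p under 0.05 in the fit as reported). With the homotypic pair as the control, a choice made after seeing the data, 8, 4, 6, 14 and 10 members were called, against 17.4%, 8.35%, 15.5%, 24.7% and 20.9% of all genes. Among members not called against FHT-WT1, that control gave calls of AAD10 in all 5 strains, of SOD2 in null and HT4, of TSA2 and YAP1 in PB1, and of TRR2, GRX4, GPX1 and CTA1 in HT4.

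**Figure D2:**
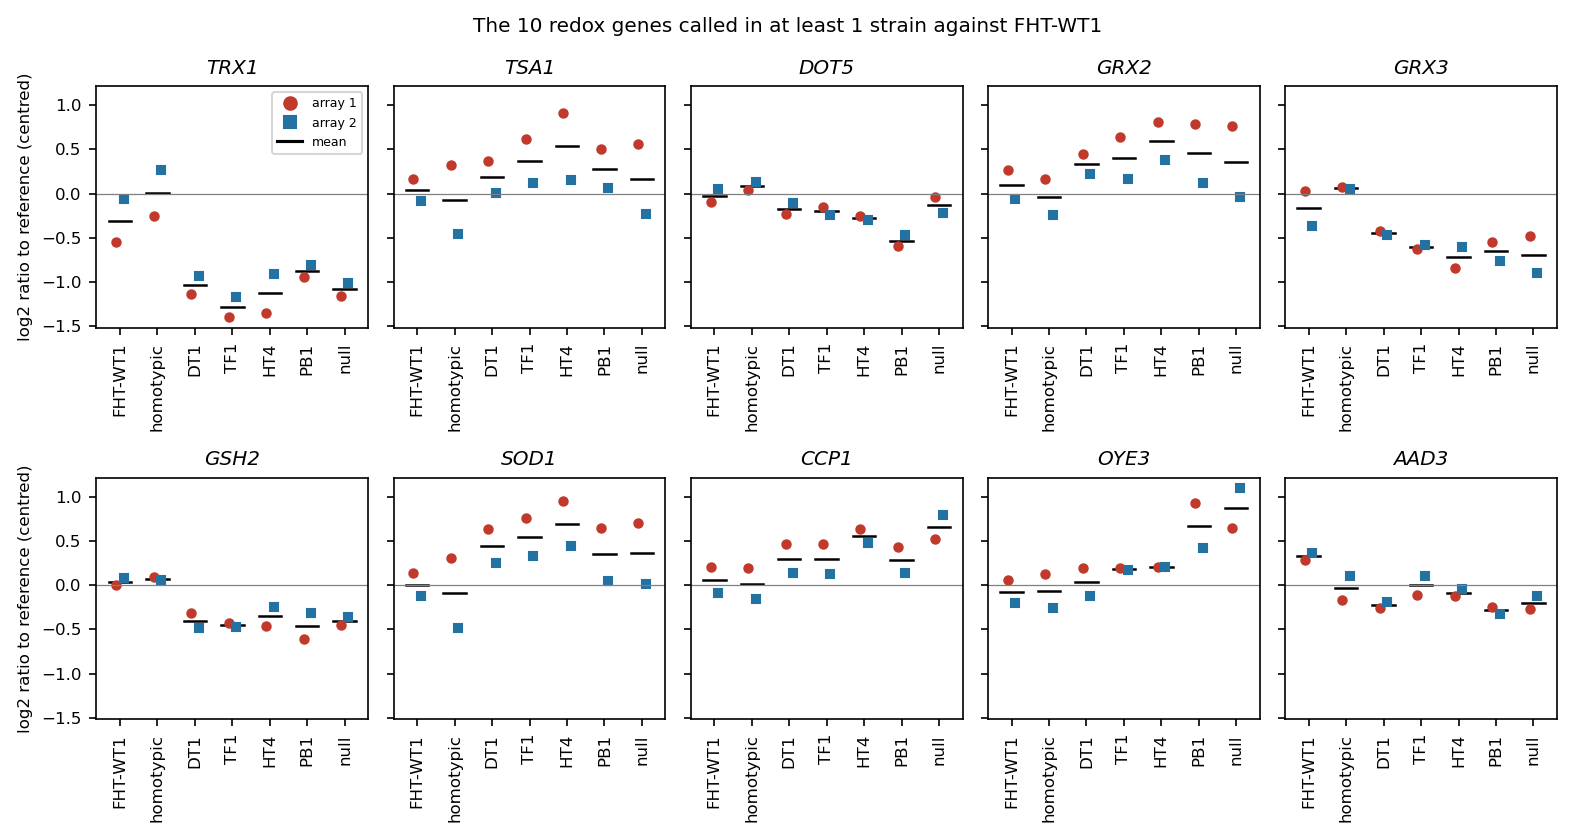
Centred log2 ratio to the reference (y axis) by group (x axis) for the 10 redox genes called in at least 1 comparison with FHT-WT1; circles are array 1, squares array 2 and bars their mean. TRX1, GSH2 and GRX3 lie lower in all 5 strains than in FHT-WT1 and the homotypic pair, and OYE3 is high in PB1 and null, at 0.93 and 0.42 and at 0.64 and 1.09.

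Within the thioredoxin system, TRX1 fell in every strain set against FHT-WT1, while the other 4 genes were called in none. TRX1 encodes a cytosolic thioredoxin, the small protein that carries electrons from thioredoxin reductase to its targets. It lay at -0.55 and -0.064 on FHT-WT1 arrays 1 and 2 and at -0.25 and 0.27 on the homotypic arrays. On arrays 1 and 2 it read -1.13 and -0.93 in DT1, -1.39 and -1.16 in TF1, -1.35 and -0.90 in HT4, -0.94 and -0.80 in PB1 and -1.15 and -1.01 in the null strain. All 10 arrays of these strains, -1.39 to -0.80, median -1.07, were lower than all 4 FHT-WT1 and homotypic arrays (-0.55 to 0.27). The fall from FHT-WT1 was largest in TF1 (-0.97 ± 0.13, 1.96-fold, limma, adjusted p = 0.00454), then HT4 (-0.82 ± 0.13, adjusted p = 0.0032), null (-0.77 ± 0.13, adjusted p = 0.0173), DT1 (-0.72 ± 0.13, adjusted p = 0.0248) and PB1 (-0.56 ± 0.13, adjusted p = 0.0228). Of all genes, 0.47% were called in all 5 comparisons, and TRX1 was the 1 such gene among the 36. The SD of TRX1 over the 2 FHT-WT1 arrays was 0.34, and FHT-WT1 itself lay -0.32 ± 0.13 from the homotypic pair (limma, adjusted p = 0.933).

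Against the homotypic pair in place of FHT-WT1 the TRX1 differences were larger, -1.09 ± 0.13 in null, -1.04 ± 0.13 in DT1, -1.29 ± 0.13 in TF1, -1.13 ± 0.13 in HT4 and -0.88 ± 0.13 in PB1, each called (limma, adjusted p of at most 0.00153). The TRX1 call in HT4 held with any 1 array left out, and that in TF1 was lost without either array of TF1 (limma, adjusted p up to 0.0688). The call in null was lost without FHT-WT1 array 2 or null array 2 (limma, adjusted p up to 0.122), that in DT1 was lost without either array of DT1, or FHT-WT1 array 2 (limma, adjusted p up to 0.32), and that in PB1 was lost without either array of FHT-WT1, or PB1 array 2 (limma, adjusted p up to 0.132). With arrays as deposited, TRX1 was called in DT1, TF1 and HT4 and read -0.71 in null and -0.50 in PB1 (limma, adjusted p = 0.167 and 0.4). In RNA of a whole culture, fewer cells with a transcript and less transcript per cell cannot be told apart.

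TRX2, the paralog of TRX1 and a known Yap1 target, was not called in any strain. It lay at 0.26 and -0.064 in FHT-WT1 and at 0.45 and -0.93 in the null strain, and array 1 was above array 2 in all 7 groups. Relative to FHT-WT1 it read -0.34 in null, -0.12 in DT1, -0.027 in TF1, 0.065 in HT4 and -0.41 in PB1, with limma adjusted p between 0.243 and 0.963. PCR products of similar paralogs can bind each other's transcripts, so values of TRX1 and TRX2 are not fully separate, and the same applies to TSA1 and TSA2, GRX1 and GRX2, GRX3 and GRX4, GPX1 and GPX2, and OYE2 and OYE3. The mitochondrial thioredoxin gene TRX3 stayed within -0.16 to 0.22 on the 10 arrays. Among the thioredoxin reductases, cytosolic TRR1 was highest on HT4 array 2 (0.63, against 0.20 on array 1), and mitochondrial TRR2 was above the array median on 9 of the 10 arrays. The largest difference of either from FHT-WT1 was in HT4, 0.35 ± 0.16 for TRR1 and 0.26 ± 0.12 for TRR2 (limma, adjusted p = 0.162 and 0.185).

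Of the 5 peroxiredoxin genes, TSA1 rose in HT4 and DOT5 fell in PB1. TSA1, the main cytosolic peroxiredoxin, lay at 0.16 and -0.079 in FHT-WT1 and 0.92 and 0.16 in HT4, a difference of 0.49 ± 0.15 (limma, adjusted p = 0.0489). Its 2 homotypic arrays read 0.32 and -0.46, a range that covers both FHT-WT1 arrays and HT4 array 2. The call in HT4 was lost without either array of DT1, TF1, HT4, PB1 or the homotypic pair, or FHT-WT1 array 1 (limma, adjusted p up to 0.303). It was also lost with the leading number of the array title as a random block (limma, adjusted p = 0.0672). DOT5, a nuclear thiol peroxidase, read -0.093 and 0.049 in FHT-WT1 and 0.038 and 0.14 in the homotypic pair. It lay at -0.60 and -0.46 in PB1, against -0.23 and -0.10 in DT1, -0.15 and -0.24 in TF1, -0.25 and -0.30 in HT4 and -0.035 and -0.21 in null, so both PB1 arrays were below every other array. The fall in PB1 was -0.51 ± 0.11 (1.42-fold, limma, adjusted p = 0.0234), and the call was lost without either array of FHT-WT1 or PB1 (limma, adjusted p up to 0.119).

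TSA2, a stress-inducible paralog of TSA1, also lay low in PB1, at -0.82 and -0.61, and at 0.37 and -0.91 on null arrays 1 and 2, but was not called against FHT-WT1 in either (PB1 -0.73 ± 0.26, limma, adjusted p = 0.103, and null -0.29 ± 0.26, adjusted p = 0.519). In HT4 it read 0.80 and 0.11. With either null array left out, TSA2 was called in PB1, and also in the test of differences among the 4 constructs. AHP1, a cytosolic thiol peroxidase, was highest on HT4 array 1 (1.11, against 0.33 on array 2) and was not called. PRX1, the mitochondrial peroxiredoxin, was above the array median on all 14 arrays, with 0.095 to 0.64, median 0.39 on the 10 arrays of the 5 strains and 0.018 to 0.33 on the 4 others. Its largest difference from FHT-WT1 was 0.43 ± 0.14 in null (limma, adjusted p = 0.0836).

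Of the 5 glutaredoxin genes, GRX2 rose and GRX3 fell, both in HT4. GRX2 encodes a dithiol glutaredoxin and GRX3 a monothiol glutaredoxin that takes part in iron regulation. GRX3 lay at 0.029 and -0.36 in FHT-WT1 and 0.079 and 0.058 in the homotypic pair. It read -0.42 and -0.47 in DT1, -0.62 and -0.58 in TF1, -0.84 and -0.60 in HT4, -0.54 and -0.76 in PB1 and -0.48 and -0.90 in null. All 10 of these arrays were lower than the 4 FHT-WT1 and homotypic arrays, of which FHT-WT1 array 2 was the lowest. Relative to FHT-WT1 the difference was -0.55 ± 0.15 in HT4 (limma, adjusted p = 0.0361), -0.52 ± 0.15 in null (adjusted p = 0.0645), -0.48 ± 0.15 in PB1 (adjusted p = 0.0727), -0.43 ± 0.15 in TF1 (adjusted p = 0.139) and -0.27 ± 0.15 in DT1 (adjusted p = 0.373). The HT4 call was lost without either array of DT1 or TF1, or FHT-WT1 array 1 or HT4 array 1 (limma, adjusted p up to 0.285). Against the homotypic pair GRX3 was called in null, TF1, HT4 and PB1, by -0.76 ± 0.15, -0.67 ± 0.15, -0.79 ± 0.15 and -0.72 ± 0.15.

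GRX2 lay at 0.27 and -0.061 in FHT-WT1 and 0.81 and 0.38 in HT4, a rise of 0.49 ± 0.14 (limma, adjusted p = 0.0386) whose call was lost without either array of FHT-WT1, TF1, HT4 or the homotypic pair (limma, adjusted p up to 0.198). Array 1 was above array 2 in all 7 groups for GRX2, as it was for GRX1 and GRX4. The dithiol paralog GRX1 read 0.56 and 0.18 in HT4 and 0.30 and -0.43 in null and was not called. The monothiol genes GRX4, the paralog of GRX3, and GRX5, which acts in mitochondrial iron-sulfur cluster assembly, were not called in any comparison with FHT-WT1, with differences between -0.23 and 0.12. GRX5 was below the array median on all 10 arrays of the 5 strains, but FHT-WT1 array 2 read -0.29.

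GSH2, which encodes glutathione synthetase, the second step of glutathione synthesis, fell in PB1 and had nearly the same level in all 5 strains. It lay at 0.0064 and 0.076 in FHT-WT1 and 0.091 and 0.053 in the homotypic pair. On arrays 1 and 2 it read -0.32 and -0.48 in DT1, -0.43 and -0.47 in TF1, -0.46 and -0.24 in HT4, -0.61 and -0.31 in PB1 and -0.45 and -0.35 in null. The 10 arrays, -0.61 to -0.24, median -0.44, did not overlap with the 4 FHT-WT1 and homotypic arrays (0.0064 to 0.091). GSH2 fell in PB1 by 0.50 ± 0.12 (limma, adjusted p = 0.0331). The other strains gave similar differences that missed the threshold, -0.49 ± 0.12 in TF1, -0.44 ± 0.12 in null, -0.39 ± 0.12 in HT4 and -0.44 ± 0.12 in DT1 (limma, adjusted p = 0.0507, 0.0562, 0.0597 and 0.103). The PB1 call was lost without either array of FHT-WT1 or TF1, or PB1 array 1 (limma, adjusted p up to 0.197). With the homotypic pair as control GSH2 was called in all 5 strains, by -0.43 to -0.53.

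GSH1, which encodes the first and rate-limiting enzyme of glutathione synthesis, was called in no strain. It read 0.11 and -0.087 in FHT-WT1, 0.33 and 0.035 in HT4 and -0.14 and -0.31 in PB1, and its differences from FHT-WT1 ran from -0.24 in PB1 to 0.19 in TF1 (limma, adjusted p = 0.213 and 0.36). The glutathione reductase gene GLR1 had its widest pair in TF1, 0.64 and -0.61, and was not called. Of the glutathione peroxidase genes, GPX1 read 0.74 and 0.050 in PB1 and GPX2 read -0.22 and -0.72 in PB1 and 0.0079 and -0.91 in null. GPX2 was not called in either strain (-0.56 ± 0.17, limma, adjusted p = 0.0718, and -0.54 ± 0.17, adjusted p = 0.0874). Without null array 1, GPX2 was called in null and in PB1.

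Among the superoxide and peroxide enzymes, SOD1 rose in TF1 and HT4 and CCP1 in HT4 and null. SOD1, the copper and zinc superoxide dismutase, lay at 0.14 and -0.12 in FHT-WT1. It read 0.64 and 0.25 in DT1, 0.76 and 0.33 in TF1, 0.95 and 0.44 in HT4, 0.65 and 0.053 in PB1 and 0.71 and 0.014 in null. Its homotypic arrays, on which no strain difference exists, read 0.30 and -0.48, and array 1 was above array 2 in all 7 groups. The rise over FHT-WT1 was 0.69 ± 0.13 in HT4 (1.61-fold, limma, adjusted p = 0.00768) and 0.54 ± 0.13 in TF1 (adjusted p = 0.0455). In DT1, null and PB1 the difference was 0.44, 0.35 and 0.34 and was not called (limma, adjusted p = 0.123, 0.13 and 0.125). The HT4 call was lost without FHT-WT1 array 1 or HT4 array 1 (limma, adjusted p up to 0.0739), and the TF1 call was lost without either array of FHT-WT1, DT1, TF1 or HT4 (limma, adjusted p up to 0.299), and with the leading number of the array title as a random block (limma, adjusted p = 0.0566). With the homotypic pair as control SOD1 was called in all 5 strains, by 0.78 ± 0.13 in HT4, 0.63 ± 0.13 in TF1, 0.53 ± 0.13 in DT1, 0.45 ± 0.13 in null and 0.44 ± 0.13 in PB1.

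SOD2, the mitochondrial manganese superoxide dismutase, was the 1 member whose 10 arrays in DT1, TF1, HT4, PB1 and null (0.17 to 0.71, median 0.51) all lay above the 4 FHT-WT1 and homotypic arrays (-0.20 to 0.062). It read -0.017 and -0.12 in FHT-WT1, 0.71 and 0.27 in HT4 and 0.47 and 0.59 in null. Its differences from FHT-WT1, 0.43 to 0.60, had an SE of 0.18 and were not called (limma, adjusted p = 0.0627 to 0.243). Over all genes, 3.25% showed 10 arrays above these 4 and 6.7% showed 10 below, as did TRX1, GRX3 and GSH2. The 1 and 3 members are 2.78% and 8.33% of the 36. As deposited, TRX1 and GSH2 kept this separation and GRX3 and SOD2 did not. CCS1, the copper chaperone of Sod1, was not called either. Its 10 arrays ran from -0.46 to -0.042, median -0.17.

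CCP1, the mitochondrial cytochrome c peroxidase, lay at 0.21 and -0.090 in FHT-WT1, 0.63 and 0.47 in HT4 and 0.52 and 0.79 in null. It rose by 0.60 ± 0.15 in null and 0.50 ± 0.15 in HT4 (limma, adjusted p = 0.0376 and 0.0475), with 0.24, 0.24 and 0.22 in DT1, TF1 and PB1. The null call was lost without either array of FHT-WT1, DT1 or TF1, or null array 2 (limma, adjusted p up to 0.271), and the HT4 call was lost without either array of FHT-WT1, DT1, TF1, HT4, PB1 or the homotypic pair (limma, adjusted p up to 0.195). YHB1, the flavohemoglobin that detoxifies nitric oxide, was not called in any strain. It read 0.15 and 0.92 in null, 0.59 and -0.18 in PB1, -0.66 and 0.12 in HT4, -0.54 and -0.35 in TF1, -0.37 and -0.35 in DT1 and -0.13 and -0.29 in FHT-WT1. Its difference between null and FHT-WT1 was 0.75 ± 0.30 (limma, adjusted p = 0.161). CTA1, the peroxisomal catalase, was above the array median on 9 of the 10 arrays and on both FHT-WT1 arrays (0.35 and 0.20), and was not called.

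OYE3 rose in PB1 and in the null strain. OYE2 and OYE3 encode old yellow enzymes, NADPH oxidoreductases of reactive enones. OYE3 lay at 0.063 and -0.21 in FHT-WT1 and 0.13 and -0.26 in the homotypic pair. It read 0.20 and -0.12 in DT1, 0.19 and 0.17 in TF1 and 0.21 and 0.21 in HT4, but 0.93 and 0.42 in PB1 and 0.64 and 1.09 in null. The lowest of the 4 PB1 and null arrays was above the highest of the other 10. The rise over FHT-WT1 was 0.94 ± 0.19 in null (1.92-fold, limma, adjusted p = 0.0229) and 0.75 ± 0.19 in PB1 (1.68-fold, adjusted p = 0.0354), against 0.11, 0.25 and 0.28 in DT1, TF1 and HT4 (limma, adjusted p = 0.8, 0.473 and 0.347). The null call was lost without either array of FHT-WT1, or null array 2 (limma, adjusted p up to 0.173), and the PB1 call was lost without either array of FHT-WT1, DT1 or TF1, or PB1 array 1 (limma, adjusted p up to 0.202). With arrays as deposited OYE3 was called in both strains, in PB1 by 0.81. Its paralog OYE2 stayed between -0.23 and 0.25 on the 10 arrays, with both PB1 arrays (0.22 and 0.25) the highest, and was not called (PB1 0.37 ± 0.13, limma, adjusted p = 0.0971).

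**Figure D3:**
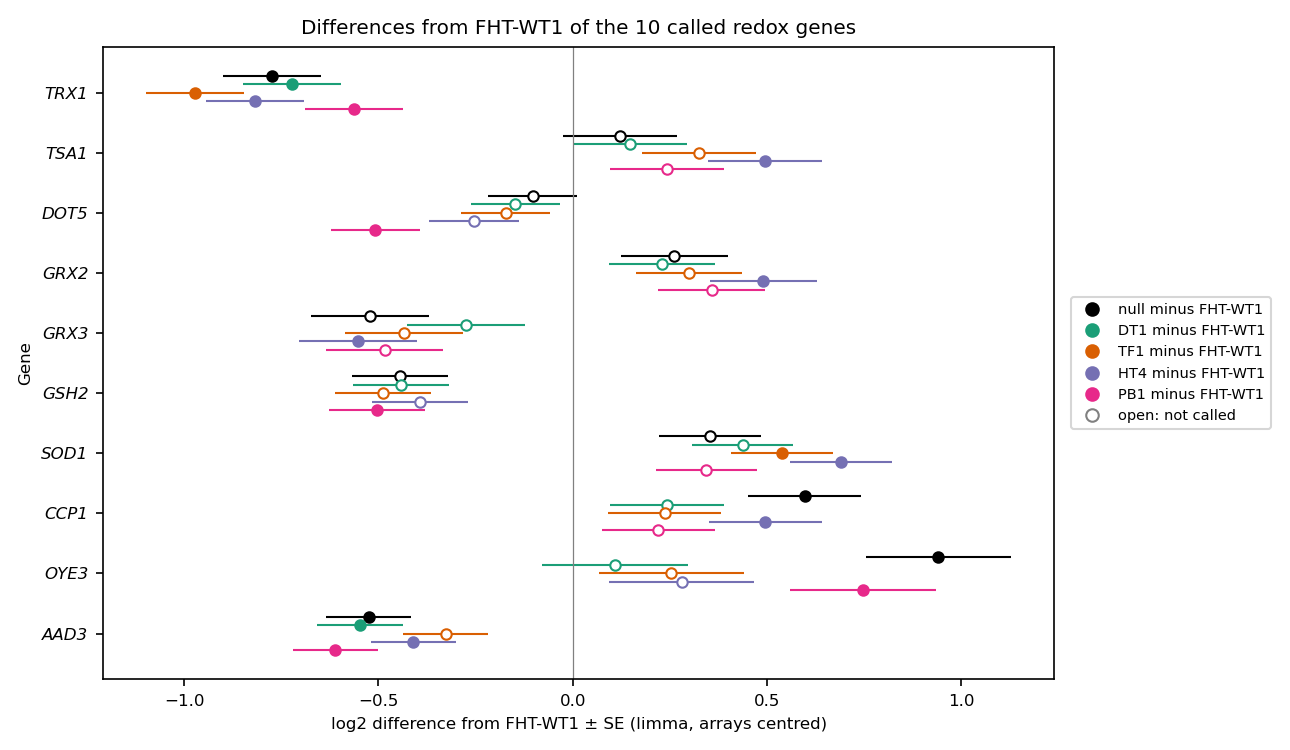
Log2 difference from FHT-WT1 ± SE from limma (x axis) for the 10 called redox genes (y axis) in null, DT1, TF1, HT4 and PB1; filled points are called and open points are not. TRX1 is filled in all 5 strains, GSH2 has nearly equal values in all 5 (-0.50 to -0.39) with 1 filled, and OYE3 is filled in null and PB1.

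The regulator genes were not called in any comparison with FHT-WT1. YAP1, whose protein is controlled mostly by oxidation and export rather than by its RNA, lay at 0.085 and 0.40 in FHT-WT1 and was above the array median on all 10 arrays of the other strains (0.014 to 0.61, median 0.23). It read 0.18 and 0.014 in DT1, 0.29 and 0.27 in TF1, 0.30 and 0.16 in HT4, 0.61 and 0.40 in PB1, 0.16 and 0.19 in null and 0.029 and -0.053 in the homotypic pair. Its mean was highest in PB1, but the 2 PB1 arrays began at the level of FHT-WT1 array 2. In PB1 the difference from FHT-WT1 was 0.27 ± 0.13 (limma, adjusted p = 0.223) and that from the homotypic pair 0.52 ± 0.13 (limma, adjusted p = 0.0168). SKN7 ranged over -0.026 to 0.39, median 0.16, on the 10 arrays, and its largest difference from FHT-WT1 was 0.24 ± 0.11 in TF1 (limma, adjusted p = 0.233).

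Of the 6 aryl-alcohol dehydrogenase genes, some of which are known Yap1 targets, AAD3 fell in 4 strains. It lay at 0.29 and 0.37 in FHT-WT1 and -0.17 and 0.10 in the homotypic pair. It read -0.25 and -0.19 in DT1, -0.11 and 0.11 in TF1, -0.12 and -0.044 in HT4, -0.25 and -0.32 in PB1 and -0.27 and -0.13 in null. The fall from FHT-WT1 was -0.61 ± 0.11 in PB1, -0.55 ± 0.11 in DT1, -0.53 ± 0.11 in null and -0.41 ± 0.11 in HT4 (limma, adjusted p = 0.00868, 0.0397, 0.0274 and 0.0324), with -0.33 in TF1 (adjusted p = 0.125). The arrays of the 5 strains (-0.32 to 0.11, median -0.16) overlapped with the homotypic arrays, and against the homotypic pair AAD3 read -0.25 ± 0.11 in PB1 and -0.19 ± 0.11 in DT1 and was called in no strain. FHT-WT1 had the highest AAD3 level of the 7 groups. The PB1 call was lost without FHT-WT1 array 1 or PB1 array 2 (limma, adjusted p up to 0.0673), and the null call was lost without either array of FHT-WT1, or null array 2 (limma, adjusted p up to 0.145). The HT4 call was lost without either array of FHT-WT1, TF1 or HT4 (limma, adjusted p up to 0.14), and also with the leading number of the array title as a random block (limma, adjusted p = 0.0505), and the DT1 call was lost without either array of FHT-WT1, DT1, TF1, HT4 or the homotypic pair (limma, adjusted p up to 0.358).

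AAD10 was called with the homotypic pair as control but not with FHT-WT1. It was above the array median on both FHT-WT1 arrays (0.20 and 0.37) and on all 10 arrays of the other strains (0.32 to 0.82, median 0.42), but read -0.58 and 0.11 in the homotypic pair. Its differences from FHT-WT1 were 0.042 to 0.37 and were not called. Against the homotypic pair it was called in all 5 strains, by 0.56 to 0.88, with homotypic array 1 the 1 array of 14 below the median. AAD4, AAD6, AAD14 and AAD15 were not called, with differences from FHT-WT1 between -0.29 and 0.16. The AAD genes are close paralogs, and PCR products of such genes can bind each other's transcripts, so none of these values can be given to 1 AAD gene with certainty.

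DT1, TF1, HT4 and PB1 were also set against the null strain, with differences that do not use the FHT-WT1 arrays, though the SE and the dye term come from the same fit of all 14 arrays. None of the 36 genes was called by limma in DT1, TF1, HT4 or PB1 (background 0.0723%, 0.0542%, 0.506% and 1.17%), with 6, 4, 8 and 5 at an unadjusted p under 0.05. TAF1 itself was 2.95, 3.00, 2.82 and 2.95 higher than in the null strain, and was called in each (limma, adjusted p of at most 4.46e-05). For TRX1 the difference from null had an unadjusted 95% interval of -0.22 to 0.33 in DT1, -0.47 to 0.075 in TF1, -0.32 to 0.23 in HT4 and -0.064 to 0.48 in PB1. For GSH2 these intervals lay within -0.33 to 0.32. A difference larger than these bounds is outside the intervals, and one within them is not excluded with 2 arrays a group.

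OYE3 and YHB1 had the largest differences from null in DT1 and TF1. In PB1 the smallest adjusted p of a member against null was that of a peroxiredoxin gene (limma, adjusted p = 0.119). OYE3 read -0.83 ± 0.19 in DT1, -0.69 ± 0.19 in TF1, -0.66 ± 0.19 in HT4 and -0.19 ± 0.19 in PB1 (limma, adjusted p = 0.227, 0.61, 0.173 and 0.657). YHB1 read -0.90, -0.98, -0.81 and -0.33, with an SE of 0.30 each. Without null array 1, OYE3 was called against null in DT1, TF1 and HT4, CCP1 in DT1, TF1 and PB1, TSA2 in TF1 and HT4, and GPX2 in DT1. With arrays as deposited, YHB1 was called in DT1, TF1 and HT4 and OYE3 in DT1. Among the 4 construct strains themselves, no redox gene differed by the moderated F test in limma (smallest adjusted p = 0.187, TSA2; 6 genes at an unadjusted p under 0.05), where 0.379% of all genes were called. Among all 6 strains the F test called TRX1, OYE3 and AAD3 (limma, adjusted p = 0.0129, 0.0466 and 0.0432), 3 of 36 against 4.01% of all genes. OYE3 and AAD3 kept that call in 3 of the 14 fits that left out 1 array, and TRX1 in 13, losing it without FHT-WT1 array 2. OYE3 also lost it with the leading number of the array title as a random block (limma, adjusted p = 0.0512).

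**Figure D4:**
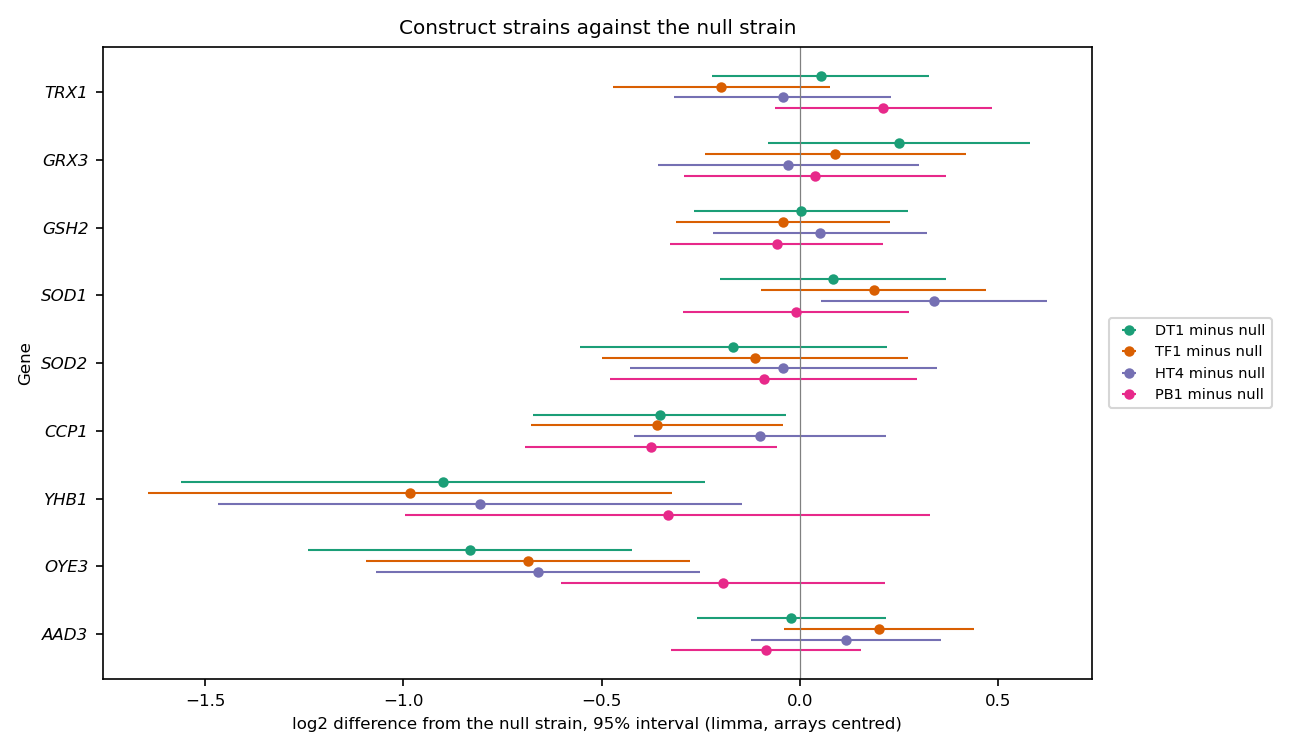
Log2 difference from the null strain (x axis) with unadjusted 95% intervals from limma for 9 redox genes (y axis) in DT1, TF1, HT4 and PB1. The TRX1, GSH2 and SOD2 intervals include 0 in all 4 strains, while those of OYE3 and YHB1 lie below 0 in DT1, TF1 and HT4 and include 0 in PB1. Those of CCP1 lie below 0 in DT1, TF1 and PB1, and that of SOD1 lies above 0 in HT4. None is called after adjustment over all genes.

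To place the control itself, FHT-WT1 was compared with the homotypic arrays. No redox gene was called by limma (background 0%), and 3 had an unadjusted p under 0.05. The count was also 0 under each alternative that gives this comparison, and in every fit with 1 array left out. The 36 genes had a median of 0.061, and the largest differences were AAD10 (0.52 ± 0.18), AAD3 (0.36 ± 0.11) and TRX1 (-0.32 ± 0.13).

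The 2 arrays of a group differ in dye orientation, and for several redox genes they differed in the same direction in every group. The leading number of the title is also higher on every array 1 than on every array 2. Dye orientation and title number therefore cannot be told apart in this difference. The dye term, the fitted difference of array 1 minus array 2, was largest for TRX2 (0.69), TSA1 (0.55) and SOD1 (0.52), and for these genes and for GRX1, GRX2, GRX4 and GPX2 array 1 was above array 2 in all 7 groups. TRX1 was the 1 member with array 1 below array 2 in all 7 groups. In the homotypic pair, where both channels hold reference RNA, the same difference was 0.78 for TSA1, 0.78 for SOD1, 0.47 for TRX2 and -0.52 for TRX1. Across the 36 genes, which share the same arrays, the mean difference in the 6 strains correlated with that in the homotypic pair at r = 0.70 (rho = 0.70), and across all 5535 genes at r = 0.59 (rho = 0.58). The median size of the dye term was 0.15 for the 36 genes and 0.15 for all genes. The fits remove this term as an average over groups, and how much of it remains in a single pair was not tested.

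**Figure D5:**
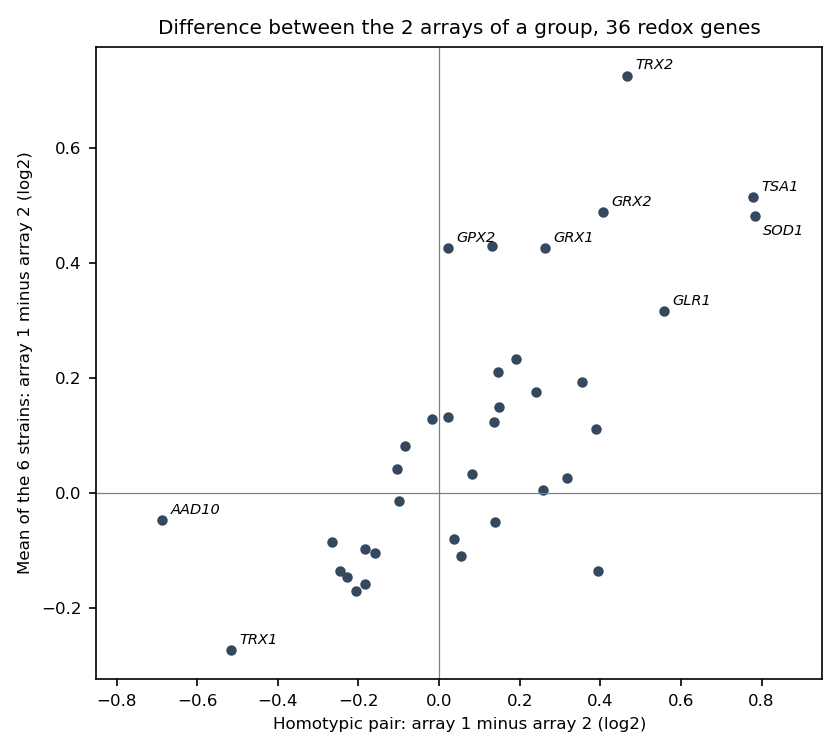
Difference of array 1 minus array 2 in centred log2 ratio, in the homotypic pair (x axis) and as the mean of the 6 strains (y axis), for the 36 redox genes (points). TSA1, SOD1, TRX2 and GRX2 lie at the upper right and TRX1 at the lower left.

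A further 39 genes of the same pathways, in 4 lists, were counted the same way: other redox enzymes, NADPH supply, relatives and partners of Yap1, and transporters induced by Yap1. Of these 39, 6 in null (4 higher and 2 lower), 1 in DT1 (0 higher and 1 lower), 5 in TF1 (3 higher and 2 lower), 8 in HT4 (6 higher and 2 lower) and 10 in PB1 (4 higher and 6 lower) were called against FHT-WT1, beside 6.02%, 0.903%, 3.72%, 11.7% and 7.35% of all genes. By list, 7 of the 16 other redox enzymes, 4 of the 10 NADPH genes, 1 of the 8 Yap relatives and 2 of the 5 transporters were called in at least 1 strain, as were 16.5% of all genes. HYR1, the thiol peroxidase that passes the peroxide signal to Yap1, lay at -0.11 and -0.14 in FHT-WT1 and 0.045 and 0.20 in the homotypic pair. On the 10 arrays of the other strains it ran from -1.18 to -0.59, median -0.84, with no overlap. It fell in PB1, TF1, null and HT4, by 0.98, 0.73, 0.69 and 0.67 on the log2 scale (limma, adjusted p = 0.00143, 0.0126, 0.0182 and 0.00701), and read -0.59 ± 0.12 in DT1 (adjusted p = 0.0509). The cytosolic catalase gene CTT1, a general stress gene, went the other way, from 0.22 and 0.31 in FHT-WT1 to 1.74 and 1.42 in HT4, a rise of 1.31 ± 0.17 (2.49-fold, limma, adjusted p = 0.00166). It also rose in TF1, null and PB1 (0.86, 0.75 and 0.70, limma, adjusted p = 0.0205, 0.031 and 0.0289), with 0.38 in DT1. With all arrays scaled to the same spread, CTT1 was not called in HT4 (limma, adjusted p = 0.0848), and neither was HYR1. In null and TF1 neither gene was called with arrays as deposited, with equal spread or with no dye term. The HYR1 call in PB1 held with any 1 array left out, that in HT4 was lost without HT4 array 2 (limma, adjusted p = 0.055), that in TF1 was lost without either array of FHT-WT1 or TF1 (limma, adjusted p up to 0.126), and that in null was lost without either array of FHT-WT1, or null array 2 (limma, adjusted p up to 0.122). The CTT1 call in HT4 held with any 1 array left out, that in TF1 was lost without either array of FHT-WT1 or TF1 (limma, adjusted p up to 0.187), that in null was lost without either array of FHT-WT1, TF1 or null (limma, adjusted p up to 0.145), and that in PB1 was lost without either array of FHT-WT1, or PB1 array 2 (limma, adjusted p up to 0.192).

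Among the NADPH genes, IDP2, the cytosolic NADP-dependent isocitrate dehydrogenase, lay at 0.31 and -0.27 in FHT-WT1. On the 10 arrays of the other strains it ran from 0.44 to 1.06, median 0.84, above all 4 FHT-WT1 and homotypic arrays. It rose in HT4, PB1, null and TF1 (0.99, 0.92, 0.76 and 0.64, limma, adjusted p = 0.00227, 0.00495, 0.0202 and 0.0362). In null and TF1, IDP2 was not called with arrays as deposited, with equal spread or with no dye term. The TF1 call was also lost with homotypic array 2 reversed. The IDP2 call in HT4 held with any 1 array left out, that in PB1 held with any 1 array left out, that in null was lost without FHT-WT1 array 2 or null array 2 (limma, adjusted p up to 0.161), and that in TF1 was lost without either array of FHT-WT1 or TF1 (limma, adjusted p up to 0.27). GND2, the minor 6-phosphogluconate dehydrogenase, rose in HT4 and fell in PB1. Its paralog GND1 was not called, and read 0.60 and 0.47 in PB1 and 0.14 and -0.21 in FHT-WT1. As for the paralogs above, values of GND1 and GND2 may not be fully separate. GND2 read 0.75 and 0.41 in DT1, 0.93 and 0.48 in TF1 and 1.22 and 0.81 in HT4, but -0.26 and -0.32 in PB1, with 0.68 and 0.20 in null and 0.20 and 0.21 in FHT-WT1. It rose in HT4 (0.81 ± 0.14, limma, adjusted p = 0.0045) and fell in PB1 (-0.49 ± 0.14, adjusted p = 0.0488), and the difference among the 4 constructs was called by the F test (limma, adjusted p = 0.00342). With arrays as deposited, with equal spread or with no dye term, GND2 was not called in HT4 against FHT-WT1. Against null it read -0.73 ± 0.14 in PB1 (limma, adjusted p = 0.0219), a call that was lost without either array of null, or PB1 array 1 (limma, adjusted p up to 0.165). Against FHT-WT1 the HT4 call held with any 1 array left out, and the PB1 call was lost without either array of FHT-WT1, DT1, TF1, HT4, PB1 or the homotypic pair (limma, adjusted p up to 0.27).

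Of the Yap relatives, ARR1, which encodes the Yap-family factor for arsenic resistance, read -0.74 and -0.22 in DT1 and -0.19 and 0.40 in FHT-WT1, a fall of -0.59 ± 0.12 (limma, adjusted p = 0.0485) whose call was lost without either array of FHT-WT1, DT1, TF1, HT4 or the homotypic pair (limma, adjusted p up to 0.354). YAP6 ran from -0.66 to -0.12, median -0.51, on the 10 arrays of the 5 strains, below the 4 others (-0.028 to 0.15), and was not called. Among the transporters, SNQ2, a multidrug ABC transporter, ran from 0.32 to 0.75, median 0.42, on the 10 arrays, above the 4 others (-0.12 to 0.21), and rose in PB1 (0.56 ± 0.14, limma, adjusted p = 0.0358), a call that was lost without either array of DT1, TF1, PB1 or the homotypic pair, or FHT-WT1 array 1 (limma, adjusted p up to 0.235). ATR1, an efflux pump, lay at -0.11 and 0.27 in FHT-WT1 and -0.37 and -0.51 in PB1 and fell there (-0.52 ± 0.13, limma, adjusted p = 0.0344), a call that was lost without either array of FHT-WT1, DT1 or TF1, or PB1 array 2 (limma, adjusted p up to 0.22).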

How the data were processed

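PolyA RNA of 7 groups was measured on 14 PCR-product arrays. What the authors deposited is a log2 ratio per feature and array. Per the labels they used mode normalisation in R on the dye swaps and then a correction by B. subtilis spike-in RNA. Array medians differ on this spike-in scale. The values as deposited keep these differences, and the centring used here removes them. Whether they reflect a shift in total polyA RNA or a technical difference was not tested. Image analysis is not given in the sources used here. Of 7056 features, 5579 carry a gene name. Features of the same gene were averaged, giving 5548 genes, of which 5535 had a value on all 14 arrays. The 36 members were named by symbol, and all 36 matched RefSeq R64 names.

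Here each array's median over those genes was set to 0, and limma 3.58.1 in R 4.3.3 (lmFit, eBayes, tested on simulated data) fitted 7 groups and dye orientation, with 6 residual degrees of freedom and Benjamini-Hochberg adjustment at 0.05. How homotypic array 2 was turned is not stated, and it was used as deposited. Alternatives were no centring, equal spread, no dye term, robust eBayes, no homotypic arrays or array 2 reversed, the leading number of the array title as a block, each array left out, and, after seeing the data, the homotypic pair as control and 2 arrays left out. Named genes were TAF1, all 36 members, and in 4 further lists the 2 genes with the smallest p among the 6 strains. The members and lists were chosen with earlier results of these data known. Protein and promoter sequences were not used here.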

Additional observations from a re-analysis of the deposited data

How the results depend on the processing

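Counts of called members are given in the order null, DT1, TF1, HT4 and PB1 minus FHT-WT1, where the fit as reported gave 4, 2, 2, 7 and 5, and the test of the 6 strains gave 3. Shares of all genes called under these alternatives are not given here, apart from those of the homotypic control above. A moved count may therefore not be particular to the members. With arrays as deposited and not centred the counts were 1, 1, 1, 2 and 1, and against null 2 in DT1, 1 in TF1 and 1 in HT4. With arrays scaled to a common median absolute deviation they were 0, 0, 0, 0 and 0, with 0 for the 6 strains. With no dye orientation term they were also 0, 0, 0, 0 and 0, with 0 for the 6 strains. Without the homotypic arrays DT1 gave 1, HT4 gave 4 and the 6 strains gave 1. With the sign of homotypic array 2 reversed DT1 gave 1, TF1 gave 1, HT4 gave 4 and the 6 strains gave 1. With the leading number of the array title as a random block TF1 gave 1. With the 2 arrays whose titles start with 4 left out, chosen after seeing the data, the counts were 0, 0, 1, 2 and 1, with 0 for the 6 strains. With the homotypic pair as control, also chosen after seeing the data, they were 8, 4, 6, 14 and 10. Robust eBayes moved no count by over 1.5 times. A count not listed for one of these fits is not necessarily unchanged. With homotypic array 2 reversed, for example, CCP1 was no longer called in null. With each array left out in turn, counts ran from 0 to 8 in null, 0 to 2 in DT1, 0 to 3 in TF1, 1 to 7 in HT4 and 0 to 8 in PB1. Against null they ran from 0 to 3 in DT1, 0 to 3 in TF1, 0 to 2 in HT4 and 0 to 1 in PB1, and they stayed at 0 for FHT-WT1 minus the homotypic pair. Among the constructs they ran from 0 to 1 and among the 6 strains from 0 to 7. Where a left-out array leaves a group with 1 array, that array is assumed to vary like the other groups. Of 1261 values of 55 called gene results over these alternatives, 774 kept the call, 487 lost it and 0 changed sign; the cause was not tested. The labels carry no replicate numbers, and the array number used here is the dye orientation, which is already a term of the fit as reported. The 2 arrays whose titles start with 4 are FHT-WT1 array 2 and homotypic array 2. No array of the other strains shares that title number. The title block also ended the calls of SOD1 in TF1, TSA1 and AAD3 in HT4, and OYE3 among the 6 strains. With 2 arrays a group and a median SE of 0.133, small differences were not detectable.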
